A study of Mus musculus with 13 samples.

Results

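OCT4-bound regions on day 3 of reprogramming were taken as the distinct regions of the merged OCT4 peak list, in which the 3 OCT4 ChIP replicates from dox-treated (Dox+) cells had been pooled and called against the pooled Dox+ input. The list held 2083 summit entries, which collapsed to 2022 regions, out of 26110 peaks in the merged OCT4 and SMAD3 lists of the series. The OCT4 comparison used 5 of the 13 samples, 3 OCT4 ChIPs and 2 inputs. The cells were mouse embryonic fibroblasts (MEFs) of mixed strain background from a transgenic line with a Nanog-GFP reporter allele and a dox-inducible cassette of c-Myc, Klf4, Oct4 and Sox2 (MKOS) at the Sp3 locus. The dox-responsive activator was expressed from the CAG promoter. They had been infected with a retrovirus for Smad3CA, a Smad3 made constitutively active by changing its C-terminal serines to aspartates. Dox was given at 1 µg/ml per the labels in medium for embryonic stem cells with LIF, and cells were collected on day 3. The SMAD3 ChIP samples used below for comparison (3 Dox+ and 3 without dox, Dox-) carried the same cassette and virus. Every OCT4 sample therefore held active Smad3, and an effect of MKOS without Smad3CA was not measured. Per the study's methods, MEFs of this line were made from E12.5 embryos of both sexes. Whether replicates came from separate cultures is not given in the labels, so p-values measure only the spread between these samples.

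OCT4 (gene name Pou5f1) is a POU-family transcription factor that binds an 8-letter sequence, the octamer, through a pair of DNA-binding domains joined by a flexible linker. With SOX2 it binds a composite element in which a SOX site lies next to an octamer-like site. In pluripotent cells OCT4 helps to sustain its own gene and other genes of the pluripotency network, and in reprogramming it is one of the factors that can bind sites in closed chromatin.

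Sequences at the summits are given first, because the octamer and its relatives were more frequent at OCT4 summits than in the flanks, as counted further on. The windows below are 81 bases of the plus strand of GRCm38 (mm10), from the RefSeq GRCm38.p6 genome, centred on the strongest summit. Capitals mark an exact match to the octamer ATGCAAAT (Nr1h4, Fli1 and Pipox), to the OCT-SOX composite (Elavl2 and Lefty2) or to the POU palindrome (Zeb2 distal), and a match to the other strand appears as its reverse complement. All of these regions were in all 3 replicate lists except that at Lefty2, which was in 2. The window at Pipox, a peroxisomal oxidase gene, was chosen after its values were seen.
Nr1h4, chr10:89487441-89487521: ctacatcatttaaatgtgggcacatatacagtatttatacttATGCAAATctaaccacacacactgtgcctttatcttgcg
Fli1, chr9:32415103-32415183: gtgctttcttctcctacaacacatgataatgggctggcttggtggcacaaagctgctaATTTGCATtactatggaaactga
Pipox, chr11:77887765-77887845: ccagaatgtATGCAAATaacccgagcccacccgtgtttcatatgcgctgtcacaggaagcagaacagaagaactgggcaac
Elavl2, chr4:91448086-91448166: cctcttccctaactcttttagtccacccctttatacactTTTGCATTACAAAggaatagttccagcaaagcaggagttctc
Lefty2, chr1:180888789-180888869: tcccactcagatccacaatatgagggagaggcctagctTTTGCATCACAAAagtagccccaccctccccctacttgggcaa
Zeb2 distal, chr2:46158862-46158942: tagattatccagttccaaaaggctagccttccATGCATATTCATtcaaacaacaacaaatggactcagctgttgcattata
The next windows come from regions present in all 3 replicate lists without an exact octamer, composite or palindrome. In the first 2, capitals mark TTGTNATGC, the joined core letters of the SOX and OCT sites, and in the Sox21 window they mark the octamer with 1 letter changed. In the Kremen1 window, from the region with the highest −log10 q-value of the list, nothing is marked.
Rif1, chr2:52072224-52072304: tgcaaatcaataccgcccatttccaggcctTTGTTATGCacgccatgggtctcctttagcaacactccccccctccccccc
Tenm4, chr7:96670280-96670360: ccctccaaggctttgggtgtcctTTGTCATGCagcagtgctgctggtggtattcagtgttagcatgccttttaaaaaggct
Sox21, chr14:118230302-118230382: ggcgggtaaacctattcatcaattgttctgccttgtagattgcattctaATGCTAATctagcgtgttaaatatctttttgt
Kremen1, chr11:5237934-5238014: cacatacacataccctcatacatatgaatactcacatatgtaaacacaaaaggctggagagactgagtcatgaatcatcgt

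OCT4 regions were weakly covered and the replicates differed in how many they found. Replicates 1, 2 and 3 alone gave 1181, 1115 and 102 distinct regions, and 81.3%, 86.2% and 90.2% of these overlapped a merged region. Of the merged regions, 594 were in none of the replicate lists, 898 in 1, 478 in 2 and 52 in all 3, and 455 of the 478 in 2 lists were in lists 1 and 2. Similar numbers of regions were in list 1 alone (440) and in list 2 alone (441), with 17 in list 3 alone. The pooled OCT4 libraries covered the genome 0.490 times and the pooled input 0.406 times, and the depth of each replicate is unknown. In a bulk ChIP, fewer cells with OCT4 bound and less OCT4 bound per cell cannot be told apart.

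Fold enrichments over input were compared between replicates 1 and 2 where both had a peak. Over the 507 merged regions in both lists, the absolute log2 ratio of their fold enrichments had a median of 0.28, or 1.22-fold, and the ratio had an SD of 0.43 on the log2 scale. Pearson's r of the log2 fold enrichments across these regions, which both lists had to call, was 0.379, and the regions are not independent replicates. Fold enrichment ran from 3.03 to 20.6 with a median of 6.15 in the merged list. The median −log10 q-value was 5.98 for regions in no list, 7.58 in 1, 12.9 in 2 and 24.5 in all 3, and the median width was 186, 212, 272 and 322.5 bp. The merged list and the replicate lists share reads, so this order describes the calls and is no independent check. The weakest merged regions had a −log10 q-value of 2.03 at a fold enrichment of 4.00.

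Input-subtracted coverage, scaled to a genome mean of 1, averaged 23.2 over the central 200 bp of the regions. It was 19.3 for regions in no replicate list, 21.5 in 1, 29.0 in 2 and 45.2 in all 3, and the mean at 1500 to 2000 bp from the center was 0.073. A fragment below is 1 step of the coverage, which may be a single aligned read. Expressed as whole fragments, the central bins held a median of 12, 13, 16 and 23 OCT4 fragments in those classes. Input fragments had a mean of 1.23, 1.15, 1.21 and 1.42. These values cover the 594, 898, 470 and 43 regions of each class whose bins could be split into fragments. Strong regions such as those at Sox21, Cnpy1 and Rif1 could not be split, so the median for all 3 lists leaves them out. No input fragment lay over the central bins in 29.5% of the 2005 split regions. The fold enrichment of a single region thus rests on few fragments.

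**Figure D1:**
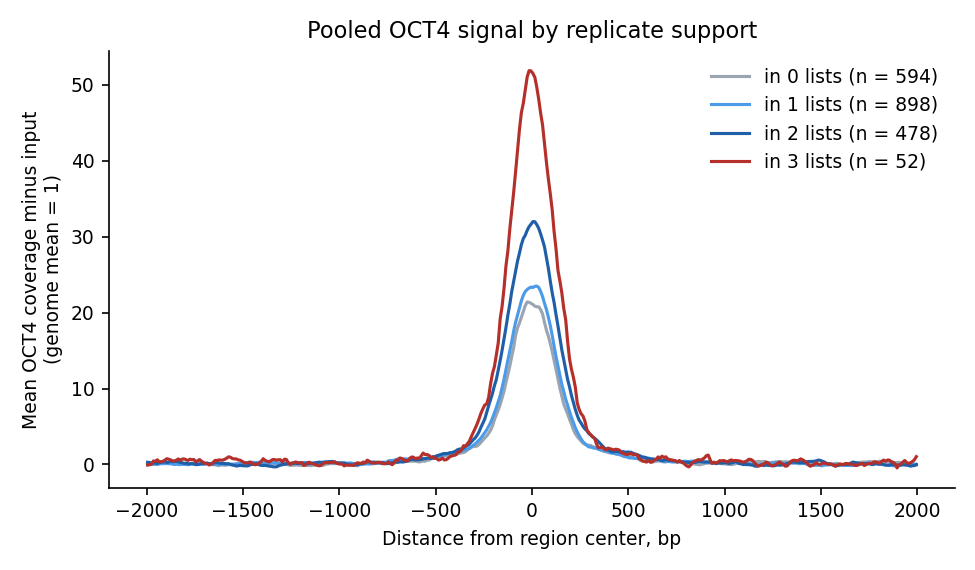
Mean pooled, input-subtracted OCT4 coverage (genome mean of 1) against distance from the region's center in bp, for regions in 0, 1, 2 and 3 replicate lists. The curves peak at 21.4, 23.5, 32 and 51.9 and return to near 0 at the edges.

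The 12 strongest regions present in all 3 replicate lists had −log10 q-values from 34.4 to 65.8. The first was in Kremen1, which encodes a receptor for DKK inhibitors of WNT signalling (chr11:5237799-5238156, intron, 474 bp downstream of a transcript start). Its fold enrichment was 17.1, 24.4 and 14.6 in replicates 1, 2 and 3 and 18.7 in the merged list, with 62 OCT4 and 6 input fragments at the center. The next was at the start of Cnpy1, a gene of the Canopy family of FGF signalling regulators (chr5:28209910-28210192, untranslated region), with 11.6, 19.4 and 15.5 in the replicates. In both, replicate 2 was the highest. A weaker Kremen1 region, 214 bp upstream of another start, had 6.12 in the merged list and no peak in any replicate.

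Nr1h4, the gene of the bile acid receptor FXR, held the region with the highest merged fold enrichment, 20.6 (chr10:89487120-89487637, intron, 19168 bp downstream of a start). The replicates gave 15.5, 19.0 and 9.02, and the center held 30 OCT4 and 0 input fragments. The region near Sox21, a SOX-family factor of neural progenitors, lay 6688 bp downstream of the start (chr14:118230060-118230623) with 11.5, 17.1 and 10.1. At Rif1, which encodes a telomere and replication-timing protein of the pluripotency list, the region was 568 bp upstream of the start (chr2:52072022-52072408) with 12.8, 16.9 and 15.6. Replicate 3, with the shortest list, gave the lowest value at Nr1h4 and Sox21 and an intermediate one at Rif1.

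The strongest regions also included some far from any coding gene. One was 47341 bp upstream of Elavl2, a neuronal RNA-binding protein gene (chr4:91447994-91448284, fold enrichment 11.7, 17.1 and 9.23 in the replicates). Another was 1041507 bp upstream of Zeb2, a zinc finger repressor of epithelial genes (chr2:46158699-46159042, 13.2, 12.9 and 8.67). The nearest start alone named Zeb2 there, and no target gene was measured. The remaining 5 were at Gm2115 (12.4, 13.8 and 12.2), H2al2a (13.6, 15.1 and 10.2), Dlg2 (7.41, 13.3 and 9.61), 5031439G07Rik (9.44, 12.2 and 12.1) and Fli1 (10.9, 8.88 and 5.81). Fli1 encodes an ETS factor of blood and endothelium, and its region lay within 10 kb of the gene (chr9:32414967-32415253), while the nearest coding start was that of Kcnj1, 21158 bp away.

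**Figure D2:**
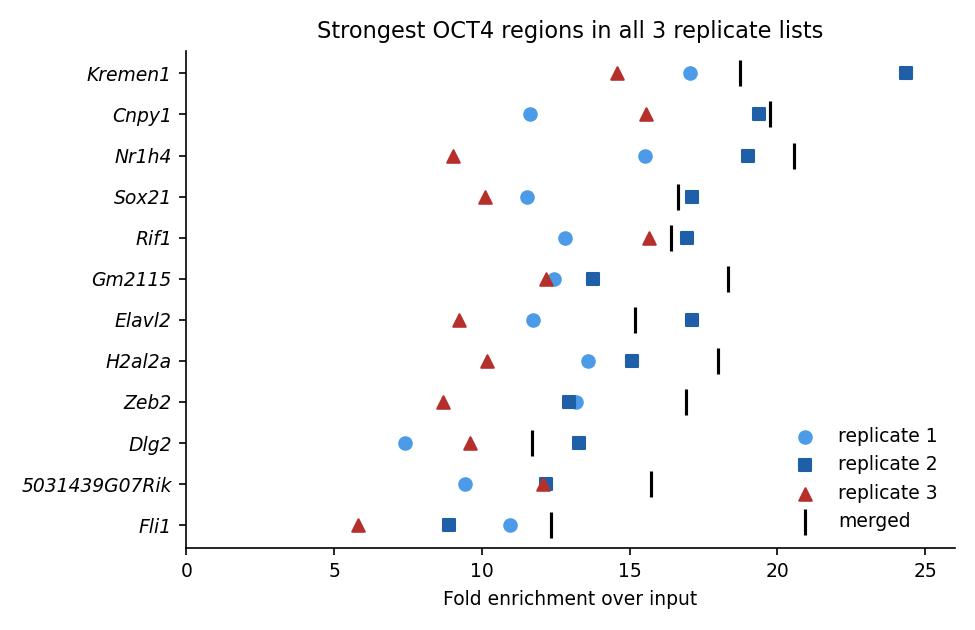
Fold enrichment over input in each replicate list and in the merged list for the 12 strongest regions present in all 3 lists, ordered by merged −log10 q-value. Replicate values run from 5.81 at Fli1 to 24.4 at Kremen1.

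By location, OCT4 regions lay in introns and between genes. Introns held 992 (49.1%, exact 95% interval 46.9 to 51.3) and intergenic sequence 952 (47.1%, 44.9 to 49.3), where 41.2% and 54.0% of genome bases lie. Exons of noncoding genes held 46 (2.27%), untranslated regions 29 (1.43%) and coding exons 3 (0.148%, 0.0306 to 0.433), beside 1.94%, 1.52% and 1.38% of genome bases. Intervals cover counting error only. The median distance from a summit to the nearest transcript start was 16277 bp, and 934 regions (46.2%) were more than 50 kb from any start of a coding gene.

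OCT4 regions were no denser at transcript starts than genome bases are. Within 1 kb of a start, and called promoter-proximal, were 122 regions (6.03%, 5.04 to 7.16), beside 6.05% of genome bases. Of the 84 regions near the start of a coding gene, 47 were upstream and 37 downstream. Beside Kremen1, Cnpy1 and Rif1, the strongest promoter-proximal regions in all 3 lists were at Nav3, a neuron navigator gene (10.7, 10.9 and 9.79 in the replicates), and at Rbm14 and its read-through model Gm21992 (7.83, 7.66 and 11.7). At Gm11916 (10.3 and 8.62), at Sgce, next to the imprinted gene Peg10 (9.13 and 8.75), and at Prune2 (9.22 and 7.92), replicates 1 and 2 had a peak and replicate 3 had none.

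Location was compared with replicate support. Introns held 48.0%, 48.8%, 50.8% and 50.0% of regions in 0, 1, 2 and 3 lists, and intergenic sequence held 47.0%, 47.8%, 46.7% and 40.4%. The promoter-proximal share was 7.24% (exact 95% interval 5.29 to 9.63), 6.01% (4.55 to 7.77), 3.97% (2.41 to 6.14) and 11.5% (4.35 to 23.4), or 43, 54, 19 and 6 regions. The intervals of the first 3 classes overlap, and that of the last is wide and holds the values of 0 and 1 lists. Exonic regions were few in every class, and the coding ones were 2 in no list and 1 in a single list. In the promoter-proximal regions the mean GC content was 47.0%, against 40.4% elsewhere, and merged SMAD3 Dox+ peaks overlapped 48.4% of them, against 23.4% elsewhere.

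**Figure D3:**
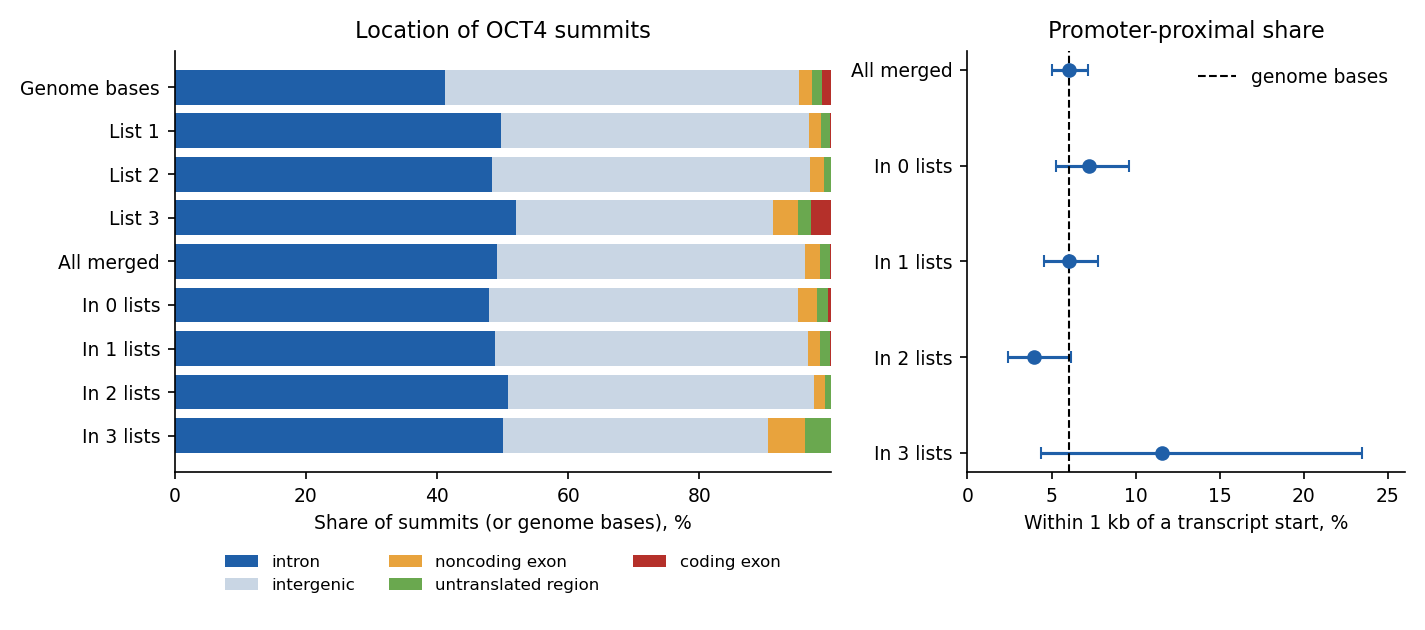
Left, the share in percent of genome bases and of OCT4 summits in each annotation class, for the replicate lists, the merged list and the merged regions by number of replicate lists. Right, the promoter-proximal share with its exact 95% interval, and the share of genome bases as a dashed line. Introns and intergenic sequence take nearly all regions in every class, and the right panel runs from 3.97% in 2 lists to 11.5% in 3 lists.

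Promoter-proximal shares were then set against those of the SMAD3 replicate lists. They were 4.43%, 6.64% and 8.82% in the OCT4 lists (mean 6.63% ± 2.20, SD, n = 3), 68.3% ± 18.8 in the Dox+ SMAD3 lists and 72.3% ± 19.8 in the Dox- SMAD3 lists (n = 3 each). The differences of -61.7 and -65.7 percentage points were larger than the spread, and the groups did not overlap (two-sided exact permutation p = 0.1 and adjusted p = 0.1 over 4 tests, the smallest that 3 against 3 lists can give). SMAD3 peaks were called as broad peaks and placed by their center, and OCT4 peaks as narrow peaks and placed by their summit. The SMAD3 lists ran from 420 to 23981 peaks, and the part of list length in the difference was not tested beyond the 100 strongest peaks of each list, where the differences were -53.0 and -63.3.

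Exact matches to known OCT4 motifs lay at the center of a small part of the regions. The octamer was within 100 bp of the summit in 134 regions (6.63%, exact 95% interval 5.58 to 7.80) and in 1.41% of windows of the same length centred 600 bp away, a ratio of 4.70. It lay at a median of 33 bp from the summit. The OCT-SOX composite was in 78 regions (3.86%, against 0.148% of flank windows) at a median of 18.5 bp, and the POU palindrome in 18 (0.890%, against 0.0495%). Motifs were searched on both strands as whole words, and a composite can overlap an octamer. Any of these 3 motifs was in 220 regions (10.9%), and octamer and composite together in 8.

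The motif share differed with replicate support. The octamer was in 5.89%, 6.12%, 7.11% and 19.2% of regions in 0, 1, 2 and 3 lists, the last being 10 of 52 (9.63 to 32.5). The composite was in 3.20%, 4.23%, 3.35% and 9.62%. These differences were not tested, since the regions are not replicates. Looser searches, chosen after the data were seen, found more: TTGTNATGC was in 219 regions (10.8%, against 0.865% of flank windows) and in 14 of the 52 in all 3 lists (26.9%). The octamer with up to 1 changed letter was in 1098 (54.3%, against 24.8%).

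Motifs of the other introduced factors were also counted at OCT4 summits. The SOX core ATTGTT was in 579 regions (28.6%, against 14.5% of flank windows), and it shares letters with the composite. The KLF motif, GGGCGTGG or GGGTGTGG, was in 141 (6.97%, against 1.76%). By support the KLF share was 8.25%, 7.46%, 4.81% and 3.85% in 0, 1, 2 and 3 lists, and it was 12.3% in promoter-proximal regions against 6.63% elsewhere. These differences were not tested either. KLF motifs met one of the 3 OCT4 motifs in 9 regions. The E-box CACGTG, bound by MYC among others, was in 1.24%, against 1.90% of flank windows.

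Among motifs of fibroblast factors, AP-1 (TGANTCA) was in 10.2% of regions against 6.36% of flank windows, TEAD (GGAATG) in 12.9% against 11.1%, and RUNX (TGTGGT) in 14.6% against 14.2%. The Kremen1 region held 3 AP-1 matches and none of the OCT4 motifs. CTCF, a motif not tied to reprogramming, was in 3 regions (0.148%, against 0.124%). In 1057 regions (52.3%) none of the octamer, composite, palindrome, SOX core, KLF and AP-1 was found, which says only that these letters were absent from the window. Summits lay in annotated repeats in 18.3% of regions, against 24.9% of flank windows.

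**Figure D4:**
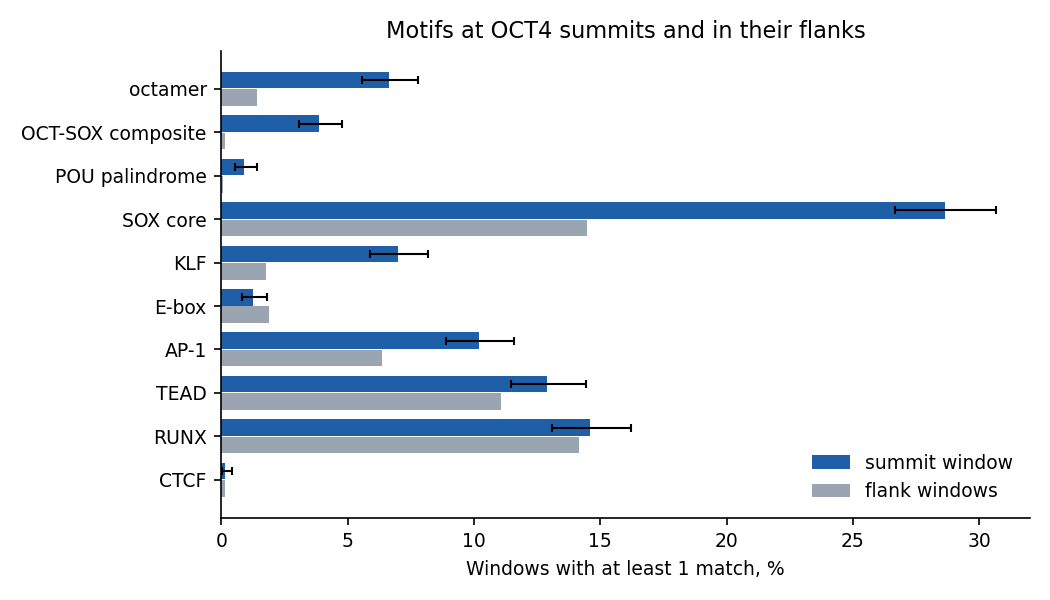
Share in percent of OCT4 regions with each motif within 100 bp of the summit (blue bars, with exact 95% intervals) and of flank windows with it (grey bars). The octamer stands at 6.63% against 1.41% and KLF at 6.97% against 1.76%, while TEAD, RUNX and CTCF bars are near their flanks.

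The octamer share was compared with SMAD3 lists in the same way as location. It was 7.41%, 6.91% and 12.7% in the 3 OCT4 lists (mean 9.02% ± 3.24, SD, n = 3), 0.843% ± 0.196 in the Dox+ SMAD3 lists and 0.669% ± 0.271 in the Dox- SMAD3 lists (n = 3 each). The differences of 8.18 and 8.35 percentage points were larger than the spread and the groups did not overlap (two-sided exact permutation p = 0.1 and adjusted p = 0.1 over the same 4 tests, the smallest possible). The windows differed in base composition, with a mean GC content of 41.3% in the OCT4 lists, 60.7% in the Dox+ SMAD3 lists and 62.2% in the Dox- SMAD3 lists. SMAD3 windows were centred on the center of a broad peak and OCT4 windows on the summit. The part of base composition and of window placement in the octamer difference was not tested. Merged SMAD3 Dox+ peaks overlapped 24.9% of all OCT4 regions, and 19.7%, 23.1%, 31.2% and 59.6% of those in 0, 1, 2 and 3 lists. Merged SMAD3 Dox- peaks overlapped 1.04% of all regions, and 2.19%, 0.334%, 1.05% and 0% by class, or 13, 3, 5 and 0 regions. Overlap needed only 1 shared bp, and the median region width rose over these classes from 186 to 322.5 bp. The part of list length and of input libraries in the Dox+ and Dox- overlaps was not tested.

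Genes were counted as bound when a region lay in the gene or within 10 kb of it. This held for 1065 of 21911 protein-coding genes (4.86%), and for 307 (1.4%) with regions in at least 2 replicate lists. Of the 2022 regions, 1127 (55.7%) had such a gene and 895 (44.3%) had none. Bound genes were long, with a median length of 101 kb against 17.4 kb for all coding genes. With the genes ranked by length, 1.05% of the shortest 4383 had a region and 15.6% of the longest 4382, while the regions per Mb differed less, 0.497 and 0.997. The counts of gene groups below should be read with that dependence on length.

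Most bound genes had a single region. There were 924 with 1, 110 with 2, and 31 with 3 or more, whose median length was 740 kb. Dlg2, which encodes a scaffold protein of synapses (1973 kb), had 6 regions, and 4 of them were in at least 2 lists. Their merged fold enrichments were 5.52, 7.93, 13.8, 11.5, 11.7 and 8.79 along the gene, and only the fifth was in all 3 lists. Tenm4, a teneurin of cell adhesion, had 5, with 1 in at least 2 lists. The strong Tenm4 region (chr7:96670210-96670454) had 9.79, 10.9 and 8.60 in the replicates.

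Further genes with 4 regions were Lsamp and Negr1, neural adhesion molecules of the IgLON family, Zmat4, Fbxl17, Zfhx3, Elp4 and the read-through model Gm20388. Negr1 had 3 and Lsamp 2 regions in at least 2 lists, while Fbxl17, Elp4 and Gm20388 had none. Kcnh7, a voltage-gated potassium channel gene, had 3 regions, the strongest with 9.40, 8.18 and 12.1 in the replicates (chr2:63012211-63012477). Mgat4c, a glycosyltransferase gene, had 3, of which 2 were in lists 1 and 2. Read per length, the Elp4 gene (204 kb) had 1.79 regions per 100 kb and Dlg2 0.301.

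Regions rarely stood close together. Chaining regions less than 20 kb apart gave 6 clusters of 3 or more regions, with 19 regions (0.940%), 88 pairs and 1827 single regions. The largest had 4 regions over 31.3 kb in introns of Elp4 (chr2:105709208-105740496), 16819 to 47910 bp from a start of Pax6, the eye and forebrain homeobox gene, whose enhancers are known to lie in Elp4. Their merged fold enrichments were 6.19, 6.48, 5.27 and 5.51. None was in more than 1 replicate list. The cluster upstream of 1700024P04Rik (3 regions over 17.8 kb) had 2 regions in lists 1 and 2, the stronger with a fold enrichment of 14.9 and 6.21.

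Among the introduced genes, Myc and Sox2 had no region in any list. Pou5f1 had a region 1957 bp upstream of its start (chr17:35503902-35504221) with a fold enrichment of 11.1 in replicate 1, 9.59 in replicate 2, 10.6 in the merged list and no peak in replicate 3. It lay outside the gene and held a KLF motif but no octamer or composite. Klf4 had a weak region, 7897 bp from its start, with 5.48 in the merged list and no peak in any replicate. Smad3 had none in the merged list or in lists 1 and 2, but list 3 had 3 peaks on Smad3 with fold enrichments of 3.27, 2.28 and 3.12, all over coding exons. They were the only coding-exon peaks of list 3, in which they made up 2.94% of regions. The introduced Smad3CA carries the same coding sequence, and its part in these peaks was not tested.

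Of 50 genes of the pluripotency network 7 (14.0%, exact 95% interval 5.82 to 26.7) had a region, of which 3 were in at least 2 lists, beside the 4.86% and 1.4% of all coding genes. These 3 were Rif1, Pou5f1 and Lefty2, an inhibitor of Nodal signalling. The Lefty2 region lay 4279 bp upstream of the start (chr1:180888661-180888974) with 8.67 and 5.84 in replicates 1 and 2, and held the composite shown above. Gdf3, a TGF-β ligand of pluripotent cells, had a region in replicate 1 only (8.81, merged 9.29). Tet2, which oxidises methylated cytosine, also had one in replicate 1 only (5.74, merged 5.85). Tfcp2l1 and Klf4 were the others. Of 11 genes the study examined 3 had a region, Pou5f1, Gdf3 and Tet2, and all 3 are in the network list as well, so they are no separate count.

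Transcription factor families are given beside the 4.86% of all coding genes, and differences between families, whose intervals overlap, were not tested. SOX and POU factors had 7 of 35 (20.0%, exact 95% interval 8.44 to 36.9) with a region, 3 of them in at least 2 lists. These were Sox21, Pou5f1 and Sox5, a SOX factor of cartilage and neurons with 2 regions in lists 1 and 2 (10.0 and 7.24 for the stronger). KLF and SP factors had 5 of 26 (19.2%), and Klf8 alone was in at least 2 lists (6.49 and 6.95 in replicates 1 and 2). Nuclear receptors had 8 of 47 (17.0%), 4 of them in at least 2 lists. These were Nr1h4, Nr6a1, Rora and Rara, and Rora, a receptor of the circadian clock, had 7.67, 9.27 and 7.0 in the replicates. Nr6a1, also known as GCNF, a repressor of Pou5f1 during differentiation, had 2 regions in lists 1 and 2.

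Other families of developmental factors had shares nearer to the 4.86% of all coding genes or 0. Of 39 HOX genes none had a region (exact 95% interval up to 9.03%, where 3 genes would make 7.69%), and none of 23 GATA and TBX genes had one (up to 14.8%, where 3 genes would make 13.0%). FOX factors had 3 of 44 (6.82%), with Foxn3 in 2 lists (6.88 and 5.93, with an octamer). Other homeobox factors had 4 of 71 (5.63%), with Pbx3, a HOX cofactor (6.91 and 8.45), and Pax5 in 2 lists. The AP-1, CEBP, RUNX and TEAD list had 1 of 32, Nfib, in replicate 3 only (5.81). HOX genes are short, with a median of 3.49 kb, and short genes had fewer regions in general.

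Signalling genes are given beside the same 4.86% and 1.4% of all coding genes, and differences between pathways were not tested. Hedgehog and Notch genes had 7 of 37 (18.9%, exact 95% interval 7.96 to 35.2) with a region, 5 of them in at least 2 lists. These were Maml2, a Notch coactivator (5.99, 9.59 and 6.80 in the replicates), the Notch ligands Jag1 (5.39 and 7.64 in replicates 1 and 2, 92 bp from the start) and Dll1 (4.97 and 6.64 in replicates 2 and 3), the Hedgehog inhibitor Hhip (6.64 and 7.68, with an octamer) and the Hedgehog effector Gli3 (5.53 and 5.84). WNT genes had 4 of 60 (6.67%, 1.85 to 16.2), of which Kremen1 and Lgr4, an R-spondin receptor, were in at least 2 lists. TGF-β, activin and BMP genes had 3 of 50, with Lefty2 alone in 2 lists. FGF and receptor tyrosine kinase genes had 1 of 32, Fgfr2, whose 3 regions lay in an annotated model of 2961 kb and were each nearest to the start of another gene.

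Genes of the fibroblast and of the epithelium, the start and an early stage of reprogramming, were bound at shares nearer to those of all coding genes. Mesenchymal and fibroblast genes had 4 of 46 (8.70%), and 1 of these was in at least 2 lists, Cdh11, a cadherin of mesenchyme (11.3 and 12 in replicates 1 and 2). The region in Fn1, which encodes fibronectin, was in no replicate list. Epithelial genes had 3 of 35 (8.57%), none in at least 2 lists, and keratins 0 of 49 (exact 95% interval up to 7.25%, where 3 genes would make 6.12%). Collagens and integrins had 5 of 75, with Col4a6 (8.26 and 6.95, with an octamer) and Itgb3 in 2 lists. Cell cycle genes and senescence barriers had 3 of 35, Cdk6, Rb1 and Cdkn2a, none in more than 1 list.

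Lists of neural and adhesion genes, which are long, held the most regions. Cadherins and protocadherins had 10 of 43 (23.3%), glutamate and GABA receptors 9 of 47 (19.1%), axon guidance genes 13 of 69 (18.8%) and potassium channels 12 of 92 (13.0%). In at least 2 replicate lists these numbers were 4, 3, 1 and 4. The shares of all coding genes were 4.86%, and 1.4% in at least 2 replicate lists. Median lengths over these 4 gene lists were 117, 138, 46.3 and 32.2 kb, above the 17.4 kb of all coding genes. Per Mb of gene and its 10 kb sides, the 4 lists held 1.22, 0.901, 1.14 and 1.31 regions, beside 0.876 over all coding genes. By that measure Hedgehog and Notch genes (3.01), SOX and POU factors (2.96), KLF and SP factors (3.13) and the pluripotency network (2.69) stood above the neural lists, on 5 to 10 regions each. These lists share members, such as Pou5f1, which counts in the SOX and POU list and in the network list. They were not alone, as further lists also stood above the neural ones, from cell cycle genes and senescence barriers (2.21) to chromatin regulators (1.46). Pcdh9, a protocadherin of neurons (9.27, 7.91 and 7.13), and Grm7, a metabotropic glutamate receptor (8.79, 10.9 and 6.95), had regions in all 3 lists, and Epha6 was the axon guidance gene in 2.

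Chromatin regulators had 9 of 70 (12.9%) with a region. Hdac9, a histone deacetylase gene with 2 regions, and Arid1b, a SWI/SNF subunit (6.61 and 5.42), were in at least 2 lists. Blood and endothelium genes had 5 of 35 (14.3%, 4.81 to 30.3), and all 5 were in at least 2 lists, beside 1.4% of all coding genes. Beside Fli1 these were Ebf1 and Pax5, factors of B cells, Ptprc, which encodes the leukocyte antigen CD45, and Cd4. Their fold enrichments in replicates 1 and 2 were 7.03 and 6.46, 6.17 and 6.58, 5.47 and 5.59, and 7.67 and 5.80 in that order. Muscle genes had 3 of 25, none in 2 lists. Among genes with no known link to reprogramming, ribosomal protein genes had 2 of 80 and olfactory receptor genes 6 of 1092 (0.549%), none in 2 lists.

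**Figure D5:**
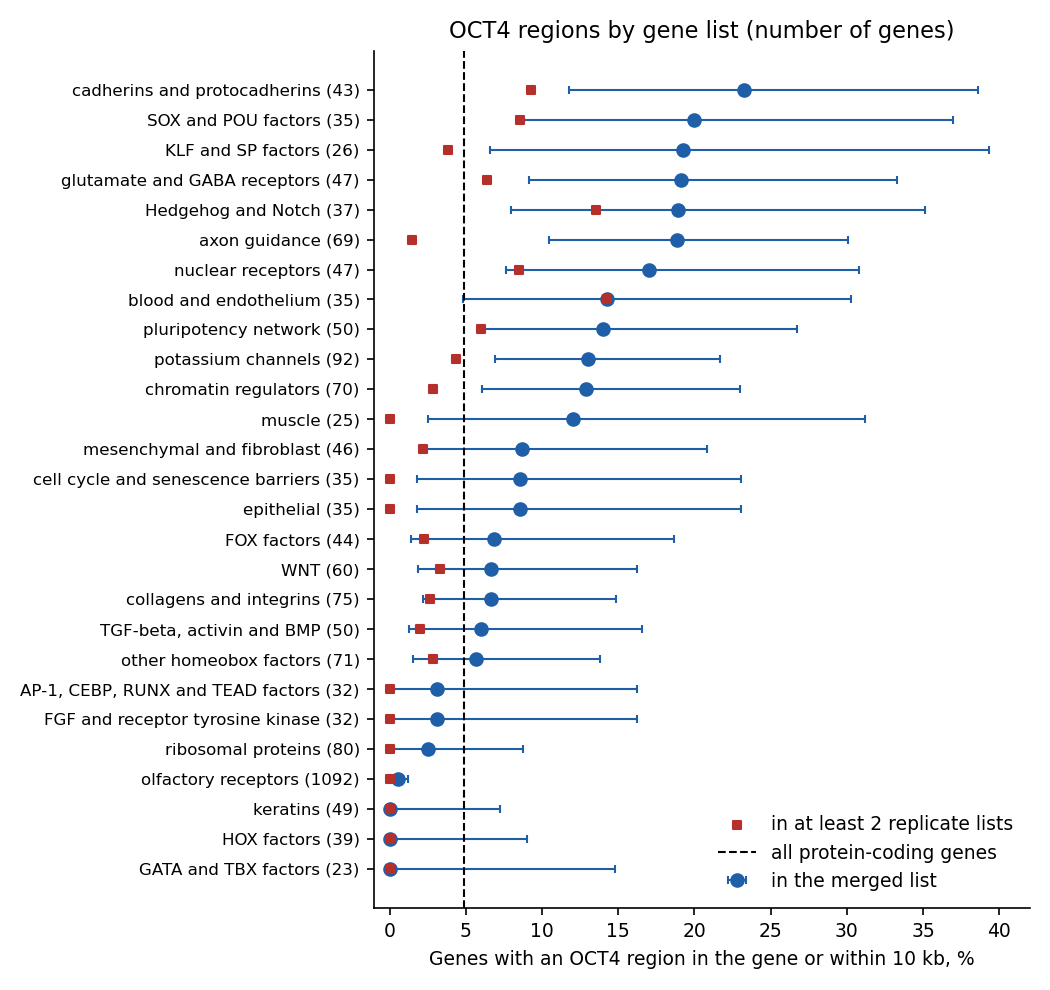
Share in percent of each gene list with an OCT4 region in the gene or within 10 kb, for all merged regions (blue points, with exact 95% intervals) and for those in at least 2 replicate lists (red squares). The lists of introduced genes and of study-examined genes are left out. The dashed line marks the 4.86% of all protein-coding genes with a merged region. Among the lists shown, cadherins are highest at 23.3%, and HOX genes, GATA and TBX factors and keratins are at 0.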

How the data were processed

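OCT4 and SMAD3 ChIP-seq and input libraries came from Smad3CA-expressing MKOS MEFs. Groups (antibody and dox) and replicate numbers follow the labels. The dox dose printed is the label's, although the study's methods give a lower dose for reprogramming experiments at large. The OCT4 Dox+ input has 2 replicates, whose reads enter only through the peak calls and the subtracted coverage.

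The authors trimmed reads with Trimmomatic, aligned them to mm10 with Bowtie 2, removed duplicates (Picard), poorly mapped reads and blacklisted regions, and called peaks with MACS2 2.1.0 on each replicate and on the pooled replicates against the pooled inputs. The deposited OCT4 lists give for each summit the peak caller's fold enrichment over input (a ratio) and its −log10 q-value. The deposited coverage is a signed score made by the authors with deepTools 2.2.3, pooled OCT4 minus pooled input coverage, both scaled to a genome mean of 1, in 10 bp bins over 2000 bp on either side of a peak's center. Tool versions are those of the submitters' processing notes. Pooling leaves these scores without replicate error. SMAD3 broad peaks were deposited per replicate and merged. Tables of differential binding from DiffBind hold the authors' own comparisons (fold changes and p-values) and were not used.

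Summit entries with equal coordinates were collapsed, and the strongest summit was kept. Overlap meant 1 shared bp or more. Regions were placed with the GENCODE annotation of GRCm38, with 1000 bp as the promoter distance, 10 kb around genes and 20 kb as the largest gap in a cluster. A bin was split into whole OCT4 and input fragments from the value of 1 fragment in each pooled library (2.04 and 2.46), which worked for 84.0% of bins. The windows searched for motifs were 100 bp on each side of the summit, with flanks centred 600 bp away. Exact Clopper-Pearson 95% intervals cover counting error only. Shares per replicate list were compared by two-sided exact permutation tests with Benjamini-Hochberg adjustment over 4 tests. Gene lists were described by counts only. The members and lists were chosen with earlier results of these data known.

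The named genes were the 12 with most regions, those at the 12 strongest regions in all 3 lists, up to 5 of each gene list by −log10 q-value among members in at least 2 lists (up to 2 others where fewer than 2 qualified), the introduced and study-examined genes, and those at the 8 strongest promoter-proximal regions in at least 2 lists. Other genes are named to complete a count, and 1 item that the rule named is not reported here. The alternatives tried were other promoter distances, gene windows, cluster gaps, motif windows, q-value limits, support limits and replicates left out. Python 3.11.15, numpy 2.4.6, pandas 2.3.3, scipy 1.17.1, statsmodels 0.14.6, pysam 0.24.0 and matplotlib 3.10.9 were used, and the steps were tested on simulated data.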

Additional observations from a re-analysis of the deposited data

Results flagged for a closer look

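Peaks on the mitochondrial chromosome were found in OCT4 replicate list 1, outside the regions described above. The list held 7 distinct mitochondrial regions, as 13 summit entries over 6020 bp, with fold enrichments over input from 1.57 to 2.14. The lists of replicates 2 and 3, the merged OCT4 list and all SMAD3 lists held 0, so these peaks were called in 1 list. Signal below the calling limit in the other libraries was not measured. The cause of these peaks was not tested. The outlier test could not be applied, because each group had 3 lists.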

How the results depend on the processing

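The promoter-proximal share was 3.36% at a distance of 500 bp, 10.9% at 2000 bp and 22.7% at 5000 bp. The number of regions in at least 2 lists was 63 to 507 when single replicates were left out (63 without replicate 1, 64 without replicate 2 and 507 without replicate 3), so it rested on replicates 1 and 2. Coding genes with a region numbered 1954 with 50 kb on each side and 307 with regions in at least 2 lists. Clusters of 3 or more regions numbered 3 at a gap of 10 kb, 12 at 50 kb and 3 with regions in at least 1 list. The octamer share was 54.3% with up to 1 mismatch, the composite share 10.8% with the joined core letters only, and the mean signal 8.67 over the central 1000 bp, where the window holds more flank by construction. The other 64 alternative values of the main results stayed within their limits. Differences between OCT4 and SMAD3 lists had only to keep their direction. With the 100 strongest peaks of each list, the octamer difference was 11.7 percentage points against either SMAD3 group. Other shares and counts were held to the spread or to 1.5 times the main count. Of the alternative values of the remaining results, mostly gene-list counts, 73 went beyond such limits and 110 did not. Pluripotency network genes with a region numbered 7 in the main setting, 3 in the gene body only and 14 with 50 kb on each side (14%, 6% and 28%). For TGF-β, activin and BMP genes these numbers were 3, 2 and 11 (6%, 4% and 22%), and for HOX genes 0 throughout. The shares of all coding genes in the same settings were 4.86%, 3.65% and 8.92%. The gene-list counts thus depend on the gene window.

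Pairing by replicate number was looked at through correlations of deviations between OCT4 and SMAD3 lists. Same-numbered lists had 0.144, -0.0642 and 0.0438 (Dox+) and 0.189, -0.192 and -0.180 (Dox-). Differently numbered lists ran from -0.288 to 0.146 (Dox+) and from -0.382 to 0.465 (Dox-). List lengths differed widely and enter these values, so they cannot decide whether replicate numbers pair the samples. With a replicate block, the paired differences were -61.7 and -65.7 percentage points for the promoter share and 8.18 and 8.35 for the octamer share, and an exact sign-flip permutation test gave p = 0.25 for each, the smallest that 3 pairs allow. Leaving out single lists, the promoter difference ran from -71.9 to -53.4 (Dox+) and from -76.0 to -56.3 (Dox-) percentage points and the octamer difference from 6.32 to 9.24 and from 6.49 to 9.41 (exact permutation p = 0.2 each, the smallest 3 against 2 lists allow). The calls rested on few fragments, and the part of depth in this was not tested. The center of the Kremen1 region held 62 OCT4 fragments, the median over the 43 split regions in all 3 lists was 23, and that in no list was 12. A gene without a region was therefore not shown to be unbound.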

Other observations

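MicroRNA and other noncoding genes near OCT4 regions were not counted above. A region lay in or within 10 kb of 205 of 5847 lincRNA genes (3.51%), 82 of 2959 antisense genes (2.77%) and 43 of 2201 miRNA genes (1.95%), beside 4.86% of coding genes, which are longer. The strongest region at an annotated miRNA gene was at Gm25978, with a merged fold enrichment of 12.2 and peaks in 2 replicate lists. The miR-290 cluster, which encodes miRNAs abundant in embryonic stem cells, had 2 regions upstream of Mir290a (chosen after the values were seen). These were chr7:3212196-3212384, 6277 bp upstream (5.58, 13 OCT4 and 3 input fragments), and chr7:3213581-3213763, 4952 bp upstream (5.85, 14 and 3 fragments). Neither was in any replicate list, so both were called only from the pooled reads. Mature 3p miRNAs of the cluster that share a seed are given from RefSeq, with the seed (bases 2 to 8) in capitals, to show the family these loci encode.
mmu-miR-291a-3p: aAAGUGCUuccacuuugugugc
mmu-miR-294-3p: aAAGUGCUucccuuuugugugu
mmu-miR-295-3p: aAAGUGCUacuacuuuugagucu

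OCT4 regions were sparse on the sex chromosomes. The autosomes held 1995 regions, or 8.33 per 10 Mb with a range over autosomes from 6.76 to 10.7, and chromosome X held 27, or 1.65 per 10 Mb. In replicate lists 1, 2 and 3 the densities were 4.81, 4.58 and 0.426 per 10 Mb on autosomes and 1.28, 1.04 and 0 on X. Chromosome Y held 0 regions. Klf8 and Col4a6, named above with regions in 2 lists, lie on X. The MEFs came from embryos of both sexes per the study's methods. The share of male cells and the copy number were not measured here, and their part in these densities was not tested.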
